A study of Mus musculus with 16 samples.

Results

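Composite elements that join an E-box to a GATA motif were examined in distal open chromatin of mouse hematopoietic progenitors. A member was a merged ATAC-Seq region more than 3 kb from the transcription start site (TSS) of any protein-coding gene, in which an E-box (CANNTG) lay 6 to 14 bp before a WGATAR word on either strand, within 100 bp of the median peak summit. A WGATAR word is AGATAA or the related AGATAG, or else TGATAA or the related TGATAG. The rule found 1527 members among 90549 merged regions (1.69%), or 2.32% of the 65790 distal regions. Beside sequence and position, the rule needs a peak in at least 1 of the 16 libraries, and presence of a peak in each library was the readout.

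An E-box is the DNA word bound by basic helix-loop-helix dimers such as TAL1 or LYL1 with an E-protein, and WGATAR is the word bound by GATA factors. In hematopoietic progenitors both kinds of factor are held together by LMO2 and LDB1, and the complex favours an E-box a short, defined distance before a WGATAR. The best known example is an intronic enhancer of Gata2 itself, on which hematopoietic stem cell emergence depends. ATAC-Seq reports where a transposase can reach the DNA, so a peak marks open chromatin and does not show which factor is bound. In a bulk library, fewer cells with an open site and less opening per cell cannot be told apart.

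All groups were mouse fetal liver progenitors made to grow without limit by HoxB8 under estrogen receptor control, kept in β-estradiol, infected for 3 d with a retrovirus that also encodes GFP, and sorted by FACS. The -77 enhancer of Gata2 was intact in hi-77+/+ cells and deleted from both chromosomes in hi-77-/- cells. Wild-type cells received the vector alone (hi-77+/+ empty), and mutant cells received the same vector (hi-77-/- empty), a vector with GATA2 (hi-77-/- GATA2), or one with 9aa-Ins (hi-77-/- 9aa-Ins), a GATA2 with 9 amino acids inserted between its zinc fingers. There were 4 libraries in each of the 4 groups. Sources do not say that replicates came from separate lines, so a genotype difference cannot be told apart from a difference between lines, and p-values measure the spread between these libraries.

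Each library entered with its 49000 most significant peaks, and a peak means 1 of these unless called deposited. The deposited lists held 50195 to 112267 peaks, and read depth is unknown. Lists of equal length end at unequal significance: the −log10 p of the last peak was 8.34 to 9.71 in hi-77+/+ empty, 7.38 to 8.13 in hi-77-/- empty, 5.35 to 7.43 in GATA2 and 8.75 to 11.7 in 9aa-Ins. A region with no peak in 9aa-Ins can thus hold a deposited peak of higher significance than some counted in GATA2. Of the 2-kb window around the -77 enhancer, 1196 to 1552 bp lay under deposited peaks in the hi-77+/+ libraries and 0 to 853 bp in the 12 hi-77-/- libraries. Of the 1196 bp covered in all 4 hi-77+/+ libraries, 343 were covered in no hi-77-/- library. All 8 progenitor marker genes had a peak at a TSS in all 16 libraries. Of 17 markers of hepatocytes, endothelium, fibroblasts, T cells and mature erythroid cells, 15 had none in any library, Pdgfra had one in 5 libraries and Slc4a1 in 1.

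The elements below carry the main patterns. Each is shown on the strand on which the E-box comes first, with 20 bp on either side, from the RefSeq copy of GRCm38 (mm10). Capitals mark the E-box and the WGATAR word. A member is named by its nearest gene and the distance of its middle from that gene's nearest TSS. The first is the intronic Gata2 enhancer (chr6:88203165-88203224, plus strand), and the second is a Kit member with the same words and spacing (chr5:75433030-75433089, plus). The next 5 are regions with a peak in all 4 GATA2 libraries and no hi-77-/- empty library: Gata1 (chrX:7971467-7971527, plus), Il1rl1 (chr1:40418675-40418736, minus), Slc18a2 (chr19:59248949-59249014, minus), Mtss1 (chr15:59012989-59013048, plus) and Postn (chr3:54505105-54505167, minus). The last 3 had a peak in all hi-77-/- empty and 9aa-Ins libraries, and in no GATA2 library at Id2 and Grik4 or 2 of them at Il6st: Id2 (chr12:25164832-25164896, plus), Grik4 (chr9:42796049-42796108, plus) and Il6st (chr13:112427850-112427909, minus).
Gata2 +4.99 kb: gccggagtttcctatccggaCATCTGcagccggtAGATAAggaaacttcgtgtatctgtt
Kit -142 kb: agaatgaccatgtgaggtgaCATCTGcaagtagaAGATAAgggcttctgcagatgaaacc
Gata1 -3.53 kb: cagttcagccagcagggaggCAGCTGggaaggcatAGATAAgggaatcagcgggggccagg
Il1rl1 -10.8 kb: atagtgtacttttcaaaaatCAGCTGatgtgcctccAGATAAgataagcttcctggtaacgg
Slc18a2 -12.2 kb: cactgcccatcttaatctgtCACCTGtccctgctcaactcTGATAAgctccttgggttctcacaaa
Mtss1 -56.7 kb: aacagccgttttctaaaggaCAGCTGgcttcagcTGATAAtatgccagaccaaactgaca
Postn +128 kb: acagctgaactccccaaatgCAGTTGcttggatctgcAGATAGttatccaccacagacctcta
Id2 -67.8 kb: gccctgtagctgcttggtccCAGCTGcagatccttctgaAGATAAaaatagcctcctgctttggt
Grik4 +12.7 kb: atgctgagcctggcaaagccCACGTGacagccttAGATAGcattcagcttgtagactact
Il6st -36.2 kb: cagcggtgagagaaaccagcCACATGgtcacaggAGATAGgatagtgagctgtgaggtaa
The Gata2 and Kit elements pair CATCTG with AGATAA over 8 bp, and the bases of the spacer differ.

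Most members held a single element. The 1527 members contained 1626 elements in all, 1467 members had 1 element and 60 had 2 or more. The middle of the element nearest the summit lay a median of 40.5 bp from it, and that element lay wholly inside the merged region in 1278 members (83.7%). Members were a median of 25.4 kb from a TSS, and 447 were more than 50 kb away. By GENCODE M21, the element was in an intron of a protein-coding gene in 729 members (47.7%), intergenic in 631 (41.3%), in a non-coding gene in 115, in a UTR in 22, in a coding exon in 17 and in a non-coding exon of a protein-coding gene in 13.

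CAGATG, read as CATCTG on the other strand, was the most frequent E-box word, with 381 members. CAGCTG followed with 214, CACATG with 199, CAACTG with 184 and CACCTG with 183. AGATAA was the WGATAR word of an element in 614 members, AGATAG in 397, TGATAA in 321 and TGATAG in 213. Median GC in the windows reaching 100 bp to either side of the summit was 47.8% in members and 47.8% in the 17901 distal regions that held a WGATAR word but no composite element. They held more WGATAR words, a mean of 1.57 per window against 1.31, and 37.6% of members against 22.0% of these regions held 2 or more. The RUNX word TGTGGTT occurred in 15.4% of members and 11.8% of the other WGATAR regions, and the ETS word AGGAAGT in 16.9% and 18.7%. Over the 46362 distal regions with no WGATAR word the shares were 11.4% and 18.7%. The EBF word CCCNNGGG was in 6.02% of members, 6.90% of the other WGATAR regions and 9.5% of regions without one, and the CEBP word TTGCNNAA in 12.3%, 13.1% and 12.3%. Words were searched on both strands and may overlap, and a match does not show that a factor binds.

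Some elements were part of annotated repeats. The nearest element was repeat-masked over all its bases in 140 members (9.17%). The 12 members nearest Apba2 lay within 26.4 kb of chromosome 7 and were all masked, with 10 distinct sequences among them. All 12 had a peak in at least 1 GATA2 library, with 8, 1, 5 and 1 members open in replicates 1 to 4. A peak in at least 1 hi-77+/+ empty library was found at 2 of them, and in at least 1 hi-77-/- empty library at 2. No Apba2 member had a peak in a 9aa-Ins library. None of the 12 was called opened.

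The first question was how often these regions were open in each group. In hi-77+/+ empty, 34.3%, 32.8%, 33.7% and 31.3% of members had a peak (33.0% ± 1.31, SD, n = 4). In hi-77-/- empty the shares were 33.6%, 34.2%, 33.1% and 35.1% (34.0% ± 0.848, n = 4). In hi-77-/- GATA2 they were 47.5%, 51.4%, 51.3% and 52.9% (50.8% ± 2.27, n = 4). In hi-77-/- 9aa-Ins they were 33.9%, 37.5%, 34.7% and 36.8% (35.7% ± 1.73, n = 4). The GATA2 libraries stood above all 12 others, and the other 3 groups overlapped.

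**Figure D1:**
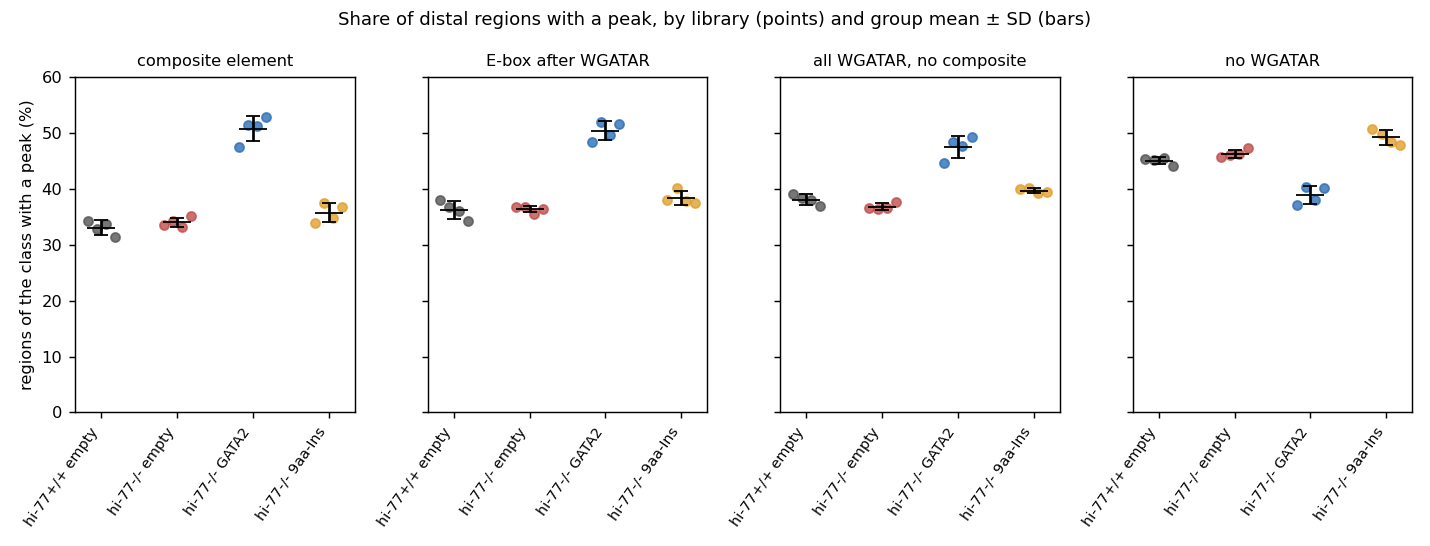
Percent of distal regions with a peak in each of the 16 libraries (points) with the group mean ± SD (black bars), in 4 classes of region; the class "all WGATAR, no composite" includes the class "E-box after WGATAR". Members with a composite element were at 47.5% to 52.9% in the GATA2 libraries and at 31.3% to 37.5% elsewhere, and regions with the reverse order of motifs stood at 48.4% to 52.0% and 34.2% to 40.2%.

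GATA2 libraries exceeded hi-77-/- empty libraries by 16.8 percentage points. The two-sided exact permutation p was 0.0286, the smallest that 4 against 4 libraries allow, and the value adjusted over 4 comparisons (Benjamini-Hochberg) was 0.0571. The share in 9aa-Ins minus that in GATA2 was -15.05 points, with the same exact p of 0.0286 and adjusted value of 0.0571. For 9aa-Ins over hi-77-/- empty the difference was 1.72 points (exact p = 0.171, adjusted 0.229). The deletion difference was 0.966 points (exact p = 0.286, adjusted 0.286), 0.388 without hi-77+/+ empty replicate 4, 0.600 without hi-77-/- empty replicate 4 and 2.04 without chromosomes 8 and 19.

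These differences depended on which regions entered and on the peaks kept. Of the members, 409 (26.8%) had peaks in GATA2 libraries only, where 9.15% of all regions did. Another 50 (3.27%) had peaks in hi-77-/- empty libraries only, where 4.43% of all regions did. Part of the GATA2 excess thus follows from how members enter. In an alternative added after the values were known, each comparison used only regions with a peak in a library of a group not compared. For GATA2 this left 1027 members, open at 54.6% ± 2.38 in GATA2 and 47.8% ± 0.861 in hi-77-/- empty, a difference of 6.79 points (n = 4 each, exact permutation p = 0.0286, adjusted 0.0381). For 9aa-Ins against GATA2 it was -5.61 points over 1007 members (exact permutation p = 0.0286, adjusted 0.0381), and for the deletion 5.09 points over 1298 members (same p values). For the deletion, both groups not compared were hi-77-/- cells. Entry through them favours regions open in hi-77-/- cells, so this value does not test the deletion. With all deposited peaks, where lists differ in length between groups, the differences were 9.26 points for GATA2 (exact permutation p = 0.143, adjusted 0.19), 12.7 for 9aa-Ins (p = 0.0571, adjusted 0.114), 3.43 for 9aa-Ins against GATA2 (p = 0.543) and -8.10 for the deletion (p = 0.0286, adjusted 0.114).

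The excess over other GATA-containing chromatin was then measured within each library. Members were less often open than the other distal WGATAR regions in both empty-vector groups, with a mean gap of -5.05 points ± 0.634 in hi-77+/+ empty and -2.79 points ± 0.549 in hi-77-/- empty (SD over the 4 libraries). With added GATA2 the order was turned, and the gap was 3.26 points ± 0.420. In 9aa-Ins libraries it was -3.99 points ± 1.65. The rise of this gap by 6.05 points with GATA2 passed the test (exact permutation p = 0.0286, adjusted 0.0381), with 4 of 4 libraries above all hi-77-/- empty libraries. So did the gap of 9aa-Ins, 7.24 points below that of GATA2 (exact p = 0.0286, adjusted 0.0381), and the rise of 2.26 points with the deletion (exact p = 0.0286, adjusted 0.0381). For 9aa-Ins against hi-77-/- empty the change of the gap was -1.19 points (exact permutation p = 0.257). All 3 adjusted calls were lost where regions had to enter through a group not compared. The changes were then 2.96 points for GATA2 and -4.83 for 9aa-Ins against GATA2 (exact permutation p = 0.0286, adjusted 0.0571 each). For the deletion the change was 1.55 points (exact permutation p = 0.0571, adjusted 0.0762). The GATA2 and 9aa-Ins against GATA2 changes kept the smallest exact p, and their adjusted values rose with the deletion p. The 3 adjusted calls were also lost with elements within 50 bp of the summit, at 3.52, -4.68 and 1.56 points (exact permutation p = 0.0286, 0.0286 and 0.0571, adjusted 0.0571, 0.0571 and 0.0762). With a peak over the element they were lost at 4.32, -3.36 and 2.31 points (exact permutation p = 0.0286, 0.0857 and 0.0286, adjusted 0.0571, 0.114 and 0.0571).

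Regions with the reverse order of motifs were compared next. In the 1038 distal regions with an E-box 6 to 14 bp after a WGATAR word and no composite element, 36.3% ± 0.545 had a peak in hi-77-/- empty and 50.4% ± 1.69 in GATA2 (n = 4 each). The difference of 14.1 points passed the test (exact permutation p = 0.0286, adjusted 0.0381). The member difference of 16.8 points had the same exact p and an adjusted value of 0.0571. Adjusted values depend on the other comparisons of each family. Reverse-order regions also entered by a peak in any of the 16 libraries, so part of this difference can follow from entry. Members exceeded these regions in the size of the GATA2 change by 2.68 points, which did not pass after adjustment (exact p = 0.0286, adjusted 0.114). For 9aa-Ins against GATA2 the corresponding value was -3.00 points (exact p = 0.0571, adjusted 0.114). The 46362 distal regions with no WGATAR word went the other way, from 46.3% in hi-77-/- empty to 38.9% in GATA2 (exact p = 0.0286, adjusted 0.0286).

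The share of open members differed with how many WGATAR words the window held, a comparison made without a test. With 1 WGATAR word, 953 members were open at 37.3% ± 0.932 in hi-77-/- empty and 46.7% ± 2.21 in GATA2. With 2 words, 429 members were open at 30.1% ± 1.63 and 56.3% ± 4.22. With 3 or more, 145 members were open at 23.6% ± 1.53 and 61.2% ± 3.10. The GATA2 difference was thus 9.37, 26.2 and 37.6 points. The same order held without a composite element, with 6.84, 22.2 and 34.9 points in the other WGATAR regions. Regions with exactly 1 WGATAR word were also compared alone, a choice made once the values were known. The excess of members over the others in the GATA2 change was 2.52 points (exact permutation p = 0.0286, adjusted 0.0381). All these values include regions with peaks in GATA2 libraries only. Part of the GATA2 differences, and of this excess, can therefore follow from how regions enter. In 9aa-Ins libraries the members with 1, 2 and 3 or more words were open at 39.7%, 31.5% and 22.1%.

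**Figure D2:**
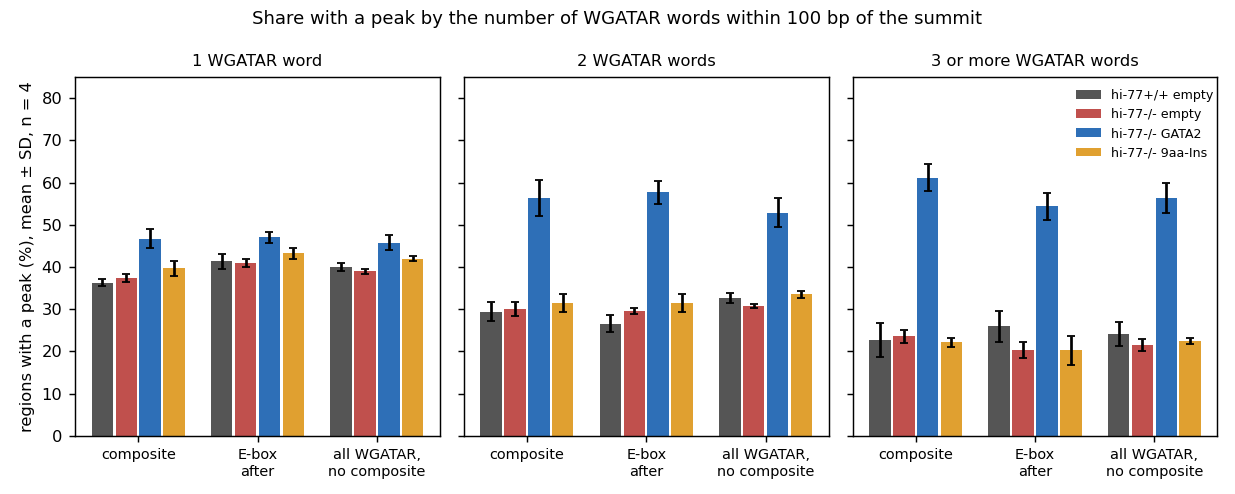
Percent of regions with a peak (mean ± SD of 4 libraries, colours for groups) in 3 panels for 1, 2 and 3 or more WGATAR words within 100 bp of the summit. The GATA2 bars stand at 46.7%, 56.3% and 61.2% for members, while those of hi-77-/- empty stand at 37.3%, 30.1% and 23.6%, and both other classes of WGATAR region show like steps.

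A count of regions that changed in every library was taken next. Opened means that all 4 libraries of the first group and none of the second held a peak in the region, and closed means the opposite. GATA2 opened 106 members (6.94%) relative to hi-77-/- empty, where 1.73% of all merged regions were opened by the same rule. Of the 106, 58 had no deposited peak in any hi-77-/- empty library and 48 had one below the kept peaks in at least 1. It closed 15 members (0.982%), where 2.23% of all regions were closed. Without hi-77-/- empty replicate 3 the closed count was 23, but leaving out a library makes the rule easier to meet and favours a higher count. In the other distal WGATAR regions 942 opened (5.26%), in the reverse-order regions 74 (7.13%) and in regions with no WGATAR word 299 (0.645%). Members made up 6.77% of all regions opened by GATA2 and 0.742% of those closed.

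9aa-Ins opened 19 members (1.24%), against 1.35% of all regions, and closed 1 (0.0655%), against 0.171% of all regions. The share opened was near that of all regions. The count closed was 2 to 7 without any 1 of hi-77-/- empty replicates 1 to 4 or 9aa-Ins replicates 1, 2 or 4. The rule is again easier to meet with a library left out. In the direct comparison, 88 members (5.76%) had a peak in all GATA2 and no 9aa-Ins library, where 1.47% of all regions did. Of these 88, 61 had a deposited peak below the kept ones in at least 1 9aa-Ins library and 16 in all 4. Conversely, 20 members (1.31%) had a peak in all 9aa-Ins and no GATA2 library, where 2.97% of all regions did. The deletion opened 47 members (3.08%), against 3.59% of all regions, and closed 22 (1.44%), against 2.11%. Of the 47, 34 had a deposited peak below the kept ones in at least 1 hi-77+/+ empty library. Of the 22, 9 had one in at least 1 hi-77-/- empty library. Without hi-77+/+ empty replicate 4 the number closed was 35, under the same easier rule.

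**Figure D3:**
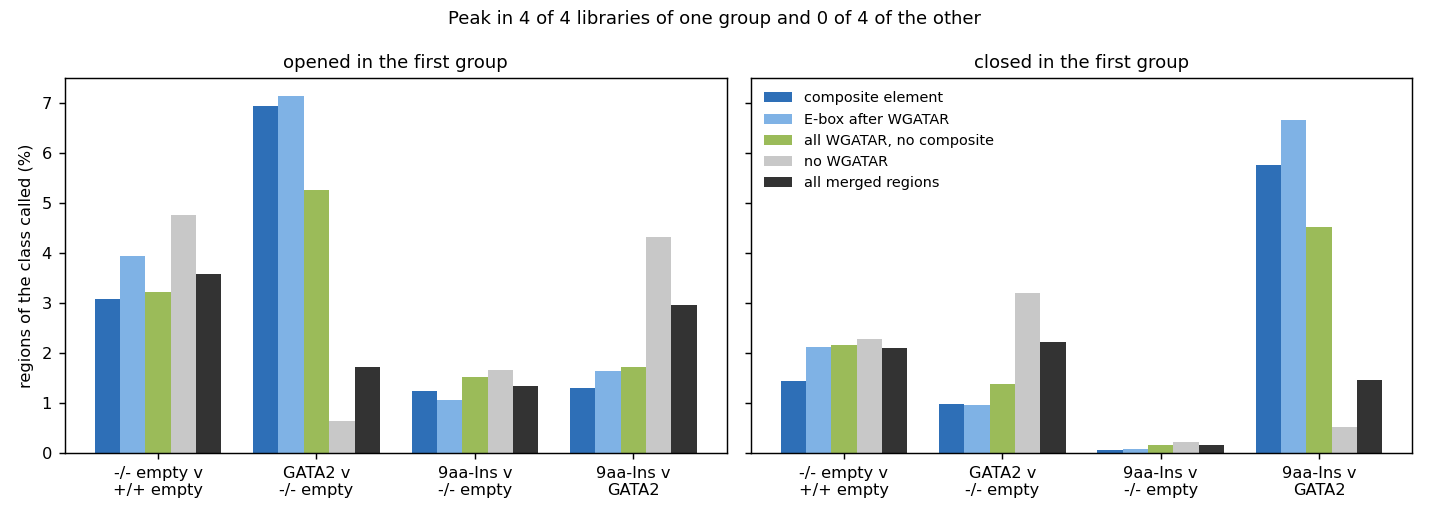
Percent of regions called opened (left) or closed (right) in the first group of each comparison, for 4 classes of distal region and for all merged regions. Composite members stood at 6.94% opened by GATA2 and 5.76% closed in 9aa-Ins against GATA2, close to the reverse-order regions at 7.13% and 6.65%.

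Breadth varied widely among members. A peak was present in all 16 libraries in 185 members (12.1%) and in 1 library only in 399 (26.1%), of which 216 were GATA2 libraries. The other distal WGATAR regions were near these shares, at 13.2% and 25.2%. Distal regions with no WGATAR word stood at 15.9% and 22.0%. In 52 members (3.41%) a peak was found in all 4 GATA2 libraries and in no other library, where 0.797% of all regions had this pattern. The same pattern was found in 11 members (0.72%) for hi-77+/+ empty, where 1.04% of all regions had it. For 9aa-Ins it was found in 3 members (0.196%, against 0.508% of all regions) and for hi-77-/- empty in 0 (against 0.085%).

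The 106 members opened by GATA2 were seldom open with the enhancer intact. In hi-77+/+ empty they had a peak at 18, 19, 18 and 8 members in replicates 1 to 4, and 70 had none in any of these libraries. In 9aa-Ins they had a peak at 15, 23, 23 and 26 members, 72 had none and 10 had one in all 4 libraries. Since these members were chosen on the GATA2 and hi-77-/- empty libraries, the values are given without a test. The values are not set beside those of all regions opened by GATA2, so they are not shown to be particular to members. In sequence, 59.4% of the 106 held 2 or more WGATAR words, where 37.6% of all members did. The EBF word CCCNNGGG was found in 1.89% of them and in 26.7% of the 15 members closed by GATA2, which is 2 and 4 members, beside 6.02% of all members.

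At Gata1, which encodes the GATA factor of erythroid, megakaryocytic and mast cells, an intronic member 3.53 kb upstream of the nearest TSS (chrX:7971292-7971591) had a peak in GATA2 libraries only. Its best peaks ranked 32864, 39558, 21330 and 31450 of 49000 there, where rank 1 is the most significant. In the 12 other libraries the deposited lists held 1 weaker peak, in hi-77-/- empty.

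At Il1rl1, which encodes the IL-33 receptor of mast cells and basophils, the member 10.8 kb upstream (chr1:40418590-40418887) had ranks of 16087, 39722, 25843 and 46110 in GATA2 libraries, and no other library had a deposited peak. Its ranks were widely spread, and the weakest lay near the end of the list. The element paired CAGCTG with AGATAA over 10 bp.

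At Slc18a2, the vesicular monoamine transporter that loads histamine and serotonin into granules, the member 12.2 kb upstream (chr19:59248163-59249195) was open in hi-77+/+ empty and GATA2 libraries. It had ranks of 39329, 25664, 18099 and 14396 in hi-77+/+ empty and of 19124, 15654, 19651 and 17966 in GATA2. No hi-77-/- empty or 9aa-Ins library had a peak among its 49000, but all 8 had a deposited peak of lower rank in the region. It was the only member in the mast cell list called closed by the deletion and opened by GATA2. The spacer was 14 bp, the longest the rule allows.

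At Kit, the stem cell factor receptor, 3 members were found and none was called. The member 142 kb upstream (chr5:75432857-75433215), whose element matches that of Gata2 in both words and spacing, ranked 34215, 17099 and 36534 in GATA2 replicates 1, 2 and 4 and had no peak in replicate 3 or in any other group, and the deposited lists added 1 hi-77-/- empty and 1 9aa-Ins library. The members 74.1 kb upstream and 5.1 kb downstream of the TSS each had a single weak peak, in a GATA2 library.

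The Gata2 enhancer itself was open in every group. Located 9.34 kb past the first Gata2 TSS (chr6:88202881-88203775), it had a peak in all 16 libraries. It was not called in any comparison. Its median rank was 16178 in hi-77+/+ empty, 12606 in hi-77-/- empty, 9639 in GATA2 and 8215 in 9aa-Ins. In GATA2 it ranged from 5802 to 16559 and in 9aa-Ins from 6406 to 10174, so these groups overlapped.

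The 3 members opened by GATA2 with the best median ranks lay at Postn, Mtss1 and Cpsf6. The Postn member, 128 kb from the TSS of the matrix protein periostin, ranked 8253, 7502, 7229 and 8382 in GATA2. A single 9aa-Ins library had a peak there, at rank 46478, and with that one 3 9aa-Ins libraries had a deposited peak. The Mtss1 member, in an intron of a gene for an actin and membrane scaffold, ranked 7469, 11436, 10778 and 10160 in GATA2. The other groups had only deposited peaks of lower rank, in 4 hi-77+/+ empty, 4 hi-77-/- empty and 2 9aa-Ins libraries. The Cpsf6 member ranked 8769 to 16917 in GATA2, and its peaks in 3 of the 9aa-Ins libraries were weaker, at 35645 to 48907, as was that in 1 hi-77+/+ empty library at 41728. With these, 4 9aa-Ins and 3 hi-77+/+ empty libraries had a deposited peak at Cpsf6.

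Members closed by GATA2 included a site near Id2, whose product binds E-proteins and keeps them off DNA. The Id2 member 67.8 kb upstream of the TSS (chr12:25164732-25165178) ranked 27629, 24343, 18138 and 22209 in hi-77-/- empty and 26962, 22986, 16243 and 19391 in 9aa-Ins. It had no peak in hi-77+/+ empty or GATA2 libraries, and deposited peaks of lower rank in 2 of each. A further Id2 member 158 kb upstream was called only between 9aa-Ins and GATA2, with ranks of 25535, 21973, 16977 and 17064 in 9aa-Ins and peaks in 2 hi-77-/- empty libraries. Grik4 +12.7 kb, in an intron of a glutamate receptor subunit gene, and Dut +71.1 kb, in an intron of Fbn1, showed the same pattern as the nearer Id2 member. Each had a deposited peak of lower rank in 1 GATA2 library. In hi-77+/+ empty, Grik4 had such a peak in 3 libraries and Dut in 2.

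Lhfpl2 -6.27 kb was closed by GATA2 from median rank 13757 in hi-77-/- empty, kept a peak in all 4 9aa-Ins libraries, and had a peak in 2 hi-77+/+ libraries. Il6st -36.2 kb, upstream of the gene for the shared IL-6 receptor subunit GP130, was opened by the deletion. It ranked 15302, 14805, 21017 and 14139 in hi-77-/- empty, had no peak in hi-77+/+ empty, and had peaks in 2 GATA2 libraries at 38423 and 42097. In 9aa-Ins it ranked 15127 to 28650 in all 4 libraries.

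Tcf4 +17.3 kb, in an intron of the gene for an E-protein that itself binds E-boxes, was opened by GATA2 at ranks of 13367 to 20897 and had no peak in any other group, with deposited peaks of lower rank in 2 hi-77-/- empty and 4 9aa-Ins libraries. Of 5 members assigned to Myc, spread over 766 kb, the one 414 kb downstream was opened by the deletion and the one 327 kb downstream, within Pvt1, was called between 9aa-Ins and GATA2. 9aa-Ins libraries had both at ranks of 36140 to 45193.

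The strongest openings by the deletion were at Pak4, Ykt6 and Fam234b, and all 3 had a peak in every GATA2 and 9aa-Ins library. Pak4 and Ykt6 each had a deposited peak of lower rank in 3 hi-77+/+ empty libraries, and Fam234b had none there. Pak4 +10.3 kb had median ranks of 9260 in hi-77-/- empty, 16297 in GATA2 and 14817 in 9aa-Ins. The strongest closures by the deletion were at Ccnj -17.8 kb, Nek2 +7.85 kb and the Slc18a2 member. Ccnj had a deposited peak of lower rank in 3 hi-77-/- empty libraries, and Nek2 had none there. Ccnj and Slc18a2 are on chromosome 19. On chromosomes 8 and 19, with 93 and 58 members, 44.9% and 35.3% of members were open in hi-77+/+ empty and 33.6% and 30.6% in hi-77-/- empty, and without both chromosomes the deletion closed 16 members. 9aa-Ins opened Adck1 +6.96 kb, Lyst -31.3 kb and Tle1 -30.1 kb, of which GATA2 also opened Adck1 and Tle1. Tle1 encodes a Groucho corepressor. The Tle1 and Ykt6 elements were fully repeat-masked, and those of Nek2 and Egfl8 in part (92.3% and 77.8% of bases). The 1 member closed by 9aa-Ins, Egfl8 -3.21 kb in an intron of Ppt2, had a peak in all 12 other libraries at ranks of 23056 to 45600, and deposited peaks of lower rank in all 4 9aa-Ins libraries.

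Members open in every library were led by Dnah7b +9.31 kb, at ranks of 70 to 267, Zbtb20 -32.0 kb, and Arhgap6 -6.58 kb. The Dnah7b element was repeat-masked. Arhgap6 had a median rank of 5835 in hi-77+/+ empty and of 836, 362 and 981 in the 3 hi-77-/- groups.

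**Figure D4:**
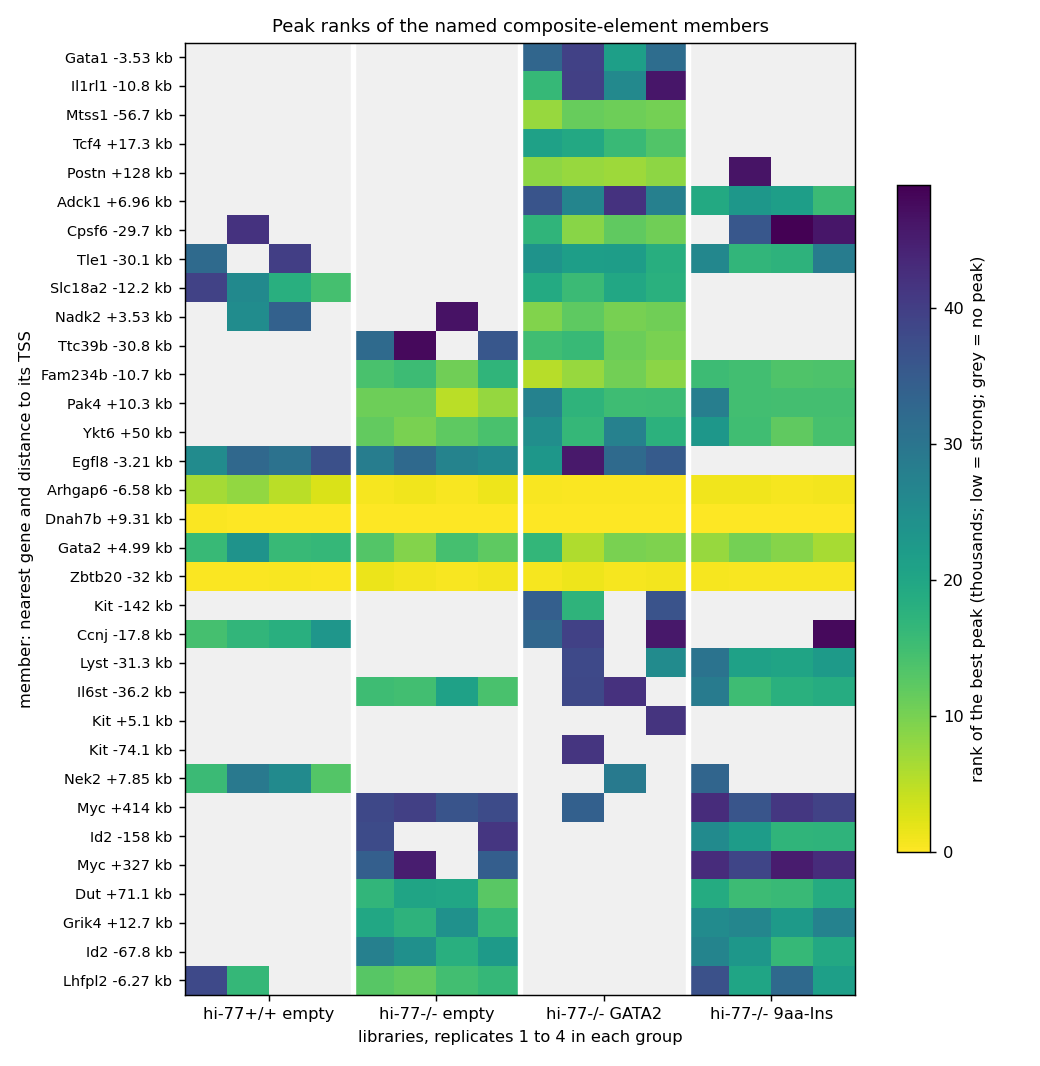
Rank of the best peak of each named member (rows, by nearest gene and distance to its TSS) in the 16 libraries (columns, 4 per group); low ranks are the most significant peaks and grey marks no peak. Gata1, Il1rl1, Mtss1 and Tcf4 have kept peaks in GATA2 libraries only, the nearer Id2 member, Dut and Grik4 have peaks in hi-77-/- empty and 9aa-Ins libraries only, and the Gata2 enhancer has a peak in all 16.

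The strongest members with a peak in every GATA2 library and in no 9aa-Ins library were at Nadk2, Mtss1 and Ttc39b. Nadk2 +3.53 kb ranked 9356 to 12127 in GATA2 and had peaks in 2 hi-77+/+ empty libraries and 1 hi-77-/- empty library. Ttc39b -30.8 kb ranked 9860 to 15889 in GATA2 and had weaker peaks in 3 hi-77-/- empty libraries, at 32143 to 47764. Deposited peaks below the kept ones lay at Ttc39b in all 4 9aa-Ins libraries and at Nadk2 in 2 of them.

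By nearest gene, 13 of 30 progenitor factor and partner genes had a member, with 19 members in all. GATA2 opened 2 of these 19, at Gata1 and Tcf4, and closed 0, where it opened 6.94% of all members and 1.73% of all regions. The list's members were open at 44.7% ± 3.04 in hi-77+/+ empty, 60.5% ± 6.79 in hi-77-/- empty, 73.7% ± 6.08 in GATA2 and 67.1% ± 2.63 in 9aa-Ins. Of the 19, 4 had peaks in GATA2 libraries only, so part of the GATA2 share is set by membership. Of 25 mast cell and basophil genes 6 had a member, with 8 members. GATA2 opened 2 of these 8, at Il1rl1 and Slc18a2, and neither had a peak in 9aa-Ins. Kit and Gata2 members count in this list, and Gata2 in both. The shares were 25% in hi-77+/+ empty, 12.5% in hi-77-/- empty and in 9aa-Ins, and 65.6% ± 15.7 in GATA2. Of the 8, 6 had peaks in GATA2 libraries only and entered through that group, so this contrast is largely set by membership. The myeloid and innate list had 7 members, of which 1 was opened by the deletion (3.59% of all regions were) and 1 by GATA2. No member was nearest to any of the 26 erythroid and megakaryocytic or the 17 B lymphoid genes. Far2, Hdc, Csf2rb, Irf8, Tifab and Il6ra were nearest to no member. In all 1329 genes were nearest to a member, so most members lay at genes of no list.

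Members changed by the deletion were scored in the groups that did not choose them. Of the 22 closed by the deletion, 4, 7, 5 and 7 had a peak in GATA2 replicates 1 to 4 (26.1% ± 6.82) and 4, 3, 3 and 4 in 9aa-Ins (15.9% ± 2.62). The groups met at 18.2%, and the difference of -10.2 points gave an exact permutation p of 0.0857. It was -1.56 points without chromosomes 8 and 19, 0 with a peak over the element, -5.86 with all deposited peaks and -20.5 with 50% of the kept peaks. Of the 47 opened by the deletion, 25, 28, 24 and 27 kept a peak in GATA2 (55.3% ± 3.88) and 34, 44, 37 and 42 in 9aa-Ins (83.5% ± 9.73). Every 9aa-Ins library lay above every GATA2 library, by 28.2 points on average (exact permutation p = 0.0286, adjusted over 2 sets 0.0571). GATA2 had no peak in any library at 12 of the 47, and 9aa-Ins had none at 0 of them. These shares are not set beside those of all regions that the deletion opened or closed. They are therefore not shown to be particular to members. The ETS word was found in 14 of the 47 (29.8%), beside 16.9% of all members.

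Features within the element were compared last. Over 31 classes and 4 comparisons, 124 tests of a class against all other members were made, 40 gave the smallest p the design allows, and none passed after adjustment (smallest adjusted value 0.0886 by exact permutation tests). The following values are therefore descriptions, and they include members with peaks in GATA2 libraries only. Of 556 members with a further WGATAR word outside any element, 28.6% ± 1.63 were open in hi-77-/- empty, 58.2% ± 3.82 in GATA2 and 29.0% ± 1.79 in 9aa-Ins, and 63 (11.3%) were opened by GATA2. Members with TGATAA or AGATAA had GATA2 differences of 21.5 and 21.9 points, and those with AGATAG or TGATAG had 9.13 and 10.1 points. Among E-box words with over 100 members, CAACTG and CAGCTG had differences of 23.1 and 22.2 points, CAGATG 14.2 and CACCTG 12. Members with the ETS word had 9.40 points. The 92 with the EBF word were open at 50.8% ± 3.70 in hi-77-/- empty, 46.2% ± 3.26 in GATA2, 46.5% in 9aa-Ins and 37.0% in hi-77+/+ empty. Members with the CEBP word were open at 33.1% in hi-77-/- empty, 52.1% in GATA2 and 46.1% in 9aa-Ins.

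Spacing gave an uneven profile. Members with 9 bp between E-box and WGATAR had the largest GATA2 difference of the 9 spacers, 26.9 points, and 23 of 185 (12.4%) were opened. A 10-bp spacer gave 22.7 points and 19 of 165 opened, and an 8-bp spacer 19.5 points and 19 of 246 (7.72%). The lowest values were 8.62 points at 6 bp and 8.99 at 13 bp. Outside the rule, 16-bp spacers gave 24.6 points and 28-bp spacers 23.9, and the reverse order ranged from 9.66 to 19.7 points over 6 to 14 bp with a median of 16.7, where members had a median of 15.6. Just outside the rule, the 549 distal regions with a 5-bp spacer gave 4.78 points, were open at 12.2% in hi-77-/- empty, and were more than 50% repeat-masked in 77.6% of windows. The 450 with a 20-bp spacer gave 7.22 points and were masked in 74.2%. The part of masking in these values was not tested. Among members, the 140 with a fully masked element were open at 35.7% ± 2.54 in hi-77+/+ empty, 19.6% ± 2.44 in hi-77-/- empty and 32.0% ± 1.47 in GATA2, and the other 1387 at 32.8%, 35.5% and 52.7%.

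**Figure D5:**
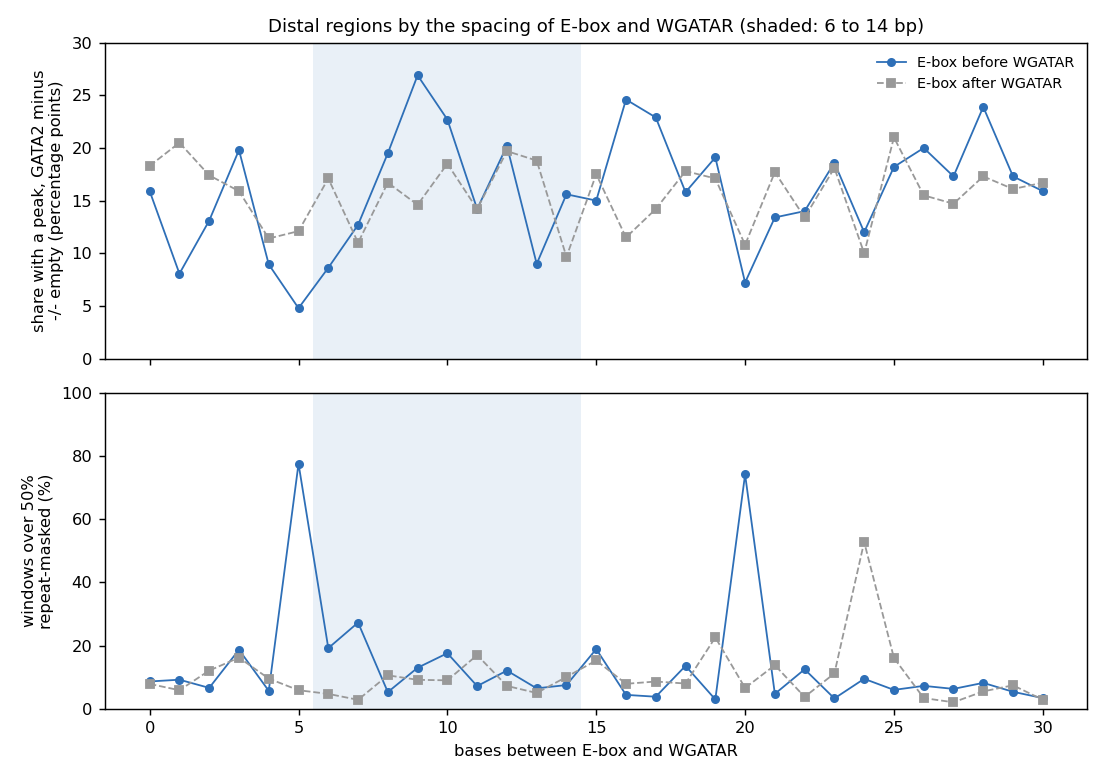
Upper panel, difference between GATA2 and hi-77-/- empty in the percent of distal regions with a peak, by the number of bases between E-box and WGATAR, for both motif orders; lower panel, percent of the same windows around the summit that were more than 50% repeat-masked. The E-box-first profile peaks at 26.9 points for 9 bp inside the shaded 6 to 14 bp and reaches 24.6 points at 16 bp outside it, and the low points at 5 and 20 bp are those with 77.6% and 74.2% masked windows.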

How the data were processed

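The members, gene lists and motif classes were chosen with earlier results of these data known. Per the labels and the study's methods, the authors trimmed reads with Trim Galore 0.4.1, aligned them to mm10 with Bowtie2 2.2.5, removed duplicates with Picard 2.26.0 and made 1 MACS2 peak list per library. The deposited lists give a fold enrichment (a ratio of pileup to background), a significance as −log10 p, and a summit offset. The −log10 p deposited by the authors ranked the peaks, with ties broken by the ratio, and no value was compared between libraries as an amount of signal. The lists hold no counts, so the authors' count test was not repeated, and depth is unknown beyond a background pileup of 0.301 to 0.890 per library, read from the step of the ratios.

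The 49000 top peaks per library on chromosomes 1 to 19 and X were merged where they overlapped by 1 bp. Sequence, repeat masking (lower case) and coordinates were from RefSeq GRCm38.p6, and TSSs and annotation from GENCODE M21. Library shares entered exact permutation tests (two-sided), and Benjamini-Hochberg values were computed within each family. With presence alone and 90549 regions, the smallest exact p for a single region does not survive adjustment, so calls are counts beside the share of all regions called. Scripts (Python 3.11.15, numpy, scipy) were tested on simulated data. Named members were, per comparison and direction, the 3 called members of best median rank, the 3 best present in all 16 libraries, called members at progenitor factor or mast cell genes, and all members at 11 study genes. No 2 libraries were alike enough to be 1 library (highest Jaccard index of peaks 0.774). The alternatives were a shorter list, all peaks, narrow peaks, a closer element, a larger TSS distance, leaving out chromosomes 8 and 19, a peak over the element, other comparison regions, the replicate block leaving out each library and, added after the data were seen, regions with exactly 1 WGATAR word and regions that entered through a group not compared.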

Additional observations from a re-analysis of the deposited data

How the results depend on the processing

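A tested result was kept if its direction and call stayed the same, and a count of members if it stayed within 1.5-fold. Of 18 results, 10 were kept with 50% of the 49000 peaks per library, 11 with all deposited peaks and 17 with narrow peaks. With an element within 50 bp of the summit 8 were kept, and over 10 kb from a TSS 14. Without chromosomes 8 and 19 all 18 were kept, and with a peak over the element 10. With 50% of the peaks the share of members open differed by 4.47 points for the deletion, 21.0 for GATA2 and -18.7 for 9aa-Ins against GATA2 (exact permutation tests, adjusted p = 0.0381 each). The gap to other WGATAR regions changed by 0.549 points for 9aa-Ins (exact p = 0.543). Members then numbered 610, with 11 closed by the deletion, 61 opened by GATA2, 11 opened by 9aa-Ins and 6 opened in 9aa-Ins against GATA2. Counts under these settings are given without the share of all regions called. With all peaks the share differed by -8.10 points for the deletion (exact permutation, adjusted p = 0.114), 9.26 for GATA2 (0.19), 3.43 for 9aa-Ins against GATA2 (0.543) and 12.7 for 9aa-Ins over hi-77-/- empty (0.114). The gap changed by -1.47 points for 9aa-Ins (exact permutation, adjusted p = 0.0286). Of 2748 members, 64 were closed by the deletion, 61 opened by 9aa-Ins, and 61 opened and 53 closed in 9aa-Ins against GATA2. The cause was not tested. With elements within 50 bp, 760 members were left, and the gap changed by 1.56 points for the deletion, 3.52 for GATA2 and -4.68 for 9aa-Ins against GATA2 (exact permutation, adjusted p = 0.0762, 0.0571 and 0.0571). The counts were then 29 opened and 14 closed by the deletion, 66 and 7 by GATA2, 0 closed by 9aa-Ins, and 10 opened and 52 closed in 9aa-Ins against GATA2. No member was closed by 9aa-Ins with narrow peaks or over 10 kb from a TSS (0 each). Over 10 kb from a TSS the shares differed by 2.95 points (deletion), 16.5 (GATA2) and -14.8 (9aa-Ins against GATA2), and with a peak over the element by 14.7 (GATA2), 4.22 (9aa-Ins) and -10.4 (9aa-Ins against GATA2), all with an exact permutation adjusted p of 0.0381. Members closed by the deletion then had a difference of 9aa-Ins from GATA2 of 0. The gap with a peak over the element changed by 2.31 (deletion, adjusted 0.0571), 4.32 (GATA2, 0.0571), 0.957 (9aa-Ins, 0.286) and -3.36 points (9aa-Ins against GATA2, 0.114). Against reverse-order regions it changed by 0.870, 2.68 and -3.00 points for the deletion, GATA2 and 9aa-Ins against GATA2, and against regions without WGATAR by -0.296, 24.1 and -25.3 points.

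Same-numbered replicates did not deviate together (16 pairs, r over all regions of -0.0167 to 0.0129), so they share only a number. Where regions had to enter through a group not compared, the shares differed by 5.09 points (deletion), 6.79 (GATA2) and -5.61 (9aa-Ins against GATA2) and the gaps by 1.55, 2.96 and -4.83 points. For the deletion share, that entry was through hi-77-/- groups only and favours regions open in hi-77-/- cells. With a replicate block the gap changes of 2.26 (deletion), 6.05 (GATA2) and -7.24 points (9aa-Ins against GATA2) had an exact sign-flip p of 0.125, the smallest that 4 pairs allow, and no other call changed. Leaving out each library in turn, the deletion share difference ranged from 0.388 to 1.39 points, and members closed by the deletion numbered 26 to 35, closed by GATA2 16 to 23 and closed by 9aa-Ins 1 to 7. These counts met an easier rule with a library left out, which favours higher values. The difference of 9aa-Ins from GATA2 ranged from 24.1 to 31.9 points in members opened by the deletion and from -17.1 to -5.65 points in members closed by it, with adjusted exact permutation p between 0.0286 and 0.0571 and between 0.0286 and 0.2. No other result changed its call. Read depth is unknown, so a missing peak does not show closed chromatin.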
